A study of Mus musculus with 24 samples.

Results

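The comparison described here is that of 3 arrays of P19 cells kept in BMS753 for 24, 48 or 72 h with 4 arrays of P19 cells kept in ethanol (EtOH), the solvent control. These 7 arrays are among the 24 of the series, and they were chosen by their labels. All 19938 genes with 1 symbol on the array entered the tests. P19 is an embryonal carcinoma line of the mouse, a tumour-derived relative of early embryonic cells, grown here as a monolayer on gelatine. BMS753 (1 µM) is an agonist selective for the retinoic acid receptor RARα. The EtOH arrays carry no time label and the BMS753 groups have 1 array per time. A change with time in culture therefore cannot be told apart from a change with BMS753 in the comparisons with EtOH. BMS753 at 2 and 6 h (1 array each) and all-trans retinoic acid (ATRA, 1 µM, 1 array at each of 24, 48 and 72 h) were used for further comparisons. The remaining arrays (ATRA at 2 and 6 h, and the agonists BMS641 and BMS961, both at 0.1 µM) only helped to estimate the spread and the time course shared by the agents. No genetic change is labelled for any group, and all are the same line. The labels do not say whether arrays came from separate cultures, so p-values measure the spread between these arrays, which may be technical in part. In the 24 to 72 h tests the 3 times served as the repeats of BMS753. The spread in those tests thus also holds differences between agents in their course over time.

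Retinoic acid enters the nucleus and binds the receptors RARα, RARβ and RARγ, which pair with RXR receptors on repeated DNA motifs and switch neighbouring genes. Its known direct targets include its own receptor gene Rarb, the enzymes that break it down, and Hox genes of the hindbrain. In embryonal carcinoma cells retinoids are known to end self-renewal and to start neural or endodermal differentiation, with the outcome depending on culture and dose.

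Values are log2 intensities, so a difference of 1 is a 2-fold change. The gene median of each array lay between 7.097 and 7.147 over the 7 arrays. The SD over genes of an array's difference from the EtOH mean was 0.195, 0.392 and 0.533 at 24, 48 and 72 h of BMS753, against 0.080 to 0.111 for the EtOH arrays. The embryonal carcinoma markers were present in the EtOH arrays, with Pou5f1 at 12.85 to 12.99, Utf1 at 11.75 to 11.87, Sox2 at 11.50 to 11.56 and Lin28a at 11.40 to 11.46. No detection calls were used, so a low log2 level of about 5 may be background, and a fold change from such a level may be understated.

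Over 24 to 72 h of BMS753, 1299 genes were higher than in EtOH and 1384 were lower (limma, adjusted p under 0.05), which is 6.52% and 6.94% of the genes tested. Of these, 238 (1.19%) were also at least 2-fold higher and 174 (0.873%) at least 2-fold lower. In the medians of these strongly changed genes, the largest step was that between 24 and 48 h. Among the 238 strong rises the median difference from EtOH was 0.40 at 24 h, 1.80 at 48 h and 2.08 at 72 h, and it was 0.06 and 0.12 at 2 and 6 h. The 174 strong falls had medians of -0.39, -1.54 and -2.11 at 24, 48 and 72 h. Since the genes were chosen on these arrays, the medians are descriptions. A first 2-fold difference came at 24 h for 50 of the 238, at 48 h for 183 and at 72 h for 5. For the falls these numbers were 6, 159 and 9. Between 24 and 72 h, 165 rises and 153 falls moved one way at each step. The arrays measure RNA of the whole culture, so a change in the number of cells of a type and a change in RNA per cell cannot be told apart.

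Taken at single times, 90 genes (0.451%) were at least 2-fold higher than in EtOH at 24 h and 8 (0.0401%) were lower. At 48 h, 353 (1.77%) were higher and 272 (1.36%) lower. At 72 h, 601 (3.01%) were higher and 561 (2.81%) lower. With 1 array per time, these tests take their spread from the 4 EtOH arrays alone. Rises thus made up most of the 24 h differences, and rises and falls were of like number at 72 h.

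**Figure D1:**
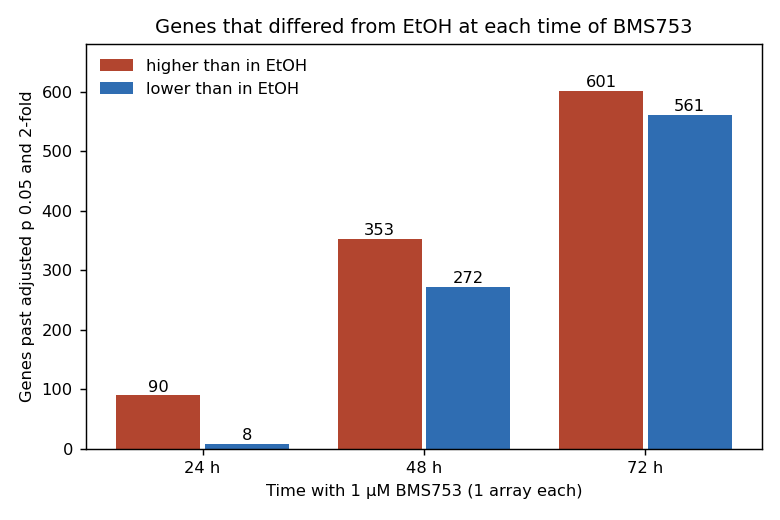
Number of genes (vertical axis) past an adjusted p of 0.05 and 2-fold against the 4 EtOH arrays at 24, 48 and 72 h of BMS753, with higher genes at the left of each pair of bars and lower genes at the right. Rises outnumber falls 90 to 8 at 24 h, and the bars stand at 601 and 561 at 72 h.

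The 24 to 72 h counts lean on the later arrays. Without the BMS753 array of 72 h, 927 genes passed in place of 2683, without that of 48 h 1286, and in a fit of only the 7 arrays 299. Over all genes, 464 rose and 463 fell without that 72 h array, in place of 1299 and 1384. Without the 48 h arrays of all agents 485 rose and 566 fell, and in the 7-array fit 189 and 110. List counts given below for these fits are to be read beside these lower counts over all genes. Among 227 genes that passed and were either picked by size or listed by pathway, 93 kept the call under every alternative other than that 7-array fit, and 31 kept it there too. A gene said below to have risen or fallen over 24 to 72 h is among these 93 unless an adjusted p under an alternative follows. The largest rises and falls were picked among genes whose BMS753 arrays all lay outside the EtOH range. Lack of overlap in those genes thus follows from the choice, and its share over all genes was not counted. The 31 include Meis2, Rarb, Csn3, Cyp26a1, Dhrs3, Greb1l, Hoxa2, Hoxa5, Hoxb1, Hoxb2, Skap2, Epha4, Gata6, Plk3, Tmem130 and Npy.

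Among the genes that handle retinoids, Rarb, Cyp26a1 and Dhrs3 were raised at all 3 times. Rarb, which encodes RARβ, measured 11.0, 11.24 and 11.24 at 24, 48 and 72 h of BMS753, against 6.89, 6.90, 7.06 and 7.02 in the EtOH arrays. It was thus at its plateau by the first of these times, with no overlap between the groups. The difference was 18.3-fold (log2 4.19 ± 0.13 SE, adjusted p = 5.93e-11, n = 3 times and 4 EtOH arrays). Cyp26a1, which encodes the main enzyme that oxidises retinoic acid, measured 9.63, 8.91 and 8.29 in BMS753, against 6.05 to 6.5 in EtOH. All 3 BMS753 arrays were above the EtOH arrays, and the level was highest at 24 h and lowest at 72 h (6.28-fold over the 3 times, adjusted p = 0.00407).

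The promoters of both genes hold a direct repeat of the RAR motif with 5 bases between its units. The search covered 250 bases before to 50 bases after each gene's start in RefSeq (GRCm38.p6), on both strands, for 2 units in the same direction with 1, 2 or 5 bases between them. A unit was AGGTCA or one of its close variants, which were AGTTCA, then with a first base changed GGGTCA, and with both changes GGTTCA. With 1 or 2 bases between the units, a repeat was in 73 (0.222%) and 88 (0.268%) of 32851 promoters and in 0 of the strongly raised or lowered genes. With 5 bases it was in 32 (0.0974%). Among 182 strongly raised genes with a promoter in the table, Rarb and Cyp26a1 had one, and among 142 strongly lowered genes there was none. A match is a description of the letters in this window only, and a more distant motif would not be seen. The sequences are shown because these are the 2 raised genes with the repeat, which is in capitals. That of Rarb is at chr14:16575427-16575726 on the minus strand, with the repeat 53 to 37 bases before the start.
Rarb: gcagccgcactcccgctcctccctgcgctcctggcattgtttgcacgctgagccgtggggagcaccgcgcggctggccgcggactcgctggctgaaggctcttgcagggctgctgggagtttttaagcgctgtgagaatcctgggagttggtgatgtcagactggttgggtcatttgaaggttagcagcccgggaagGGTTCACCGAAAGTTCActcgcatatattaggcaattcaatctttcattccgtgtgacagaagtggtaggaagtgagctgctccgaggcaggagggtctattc
That of Cyp26a1 is at chr19:37697558-37697857 on the plus strand, with the repeat read on the opposite strand, 32 to 16 bases before the start.
Cyp26a1: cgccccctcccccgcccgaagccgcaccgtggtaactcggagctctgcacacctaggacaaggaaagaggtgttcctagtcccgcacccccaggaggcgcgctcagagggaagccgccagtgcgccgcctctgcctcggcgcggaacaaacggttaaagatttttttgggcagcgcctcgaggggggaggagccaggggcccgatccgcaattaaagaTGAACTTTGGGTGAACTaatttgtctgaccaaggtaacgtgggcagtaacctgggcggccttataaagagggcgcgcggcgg

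Both clearance genes that rose already stood above the EtOH arrays at 2 h of BMS753, with Cyp26a1 at 7.41 and 8.32 at 2 and 6 h. Dhrs3, which encodes a reductase that returns retinaldehyde to retinol, measured 10.91, 10.1 and 10.27 at 24, 48 and 72 h of BMS753, against 8.71 to 8.81 in EtOH. Its highest late value was at 24 h and its 2 and 6 h values were 9.81 and 10.43, so the groups did not overlap and the level did not build up with time (log2 1.68 ± 0.15 SE, adjusted p = 1.71e-05). Of the 4 clearance genes measured, 2 rose and 0 fell. Cyp26b1, a relative of Cyp26a1, averaged 0.66 log2 above EtOH (adjusted p = 0.147), and Cyp26c1 stood at 6.15 to 6.32 in BMS753 and 6.21 to 6.44 in EtOH.

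Among the 6 RAR and RXR genes, 3 rose and 0 fell, and 2 rose without the BMS753 array of 72 h. Rxra, the gene of the partner receptor RXRα, measured 7.96, 8.96 and 8.89 in BMS753, against 7.52 to 7.72 in EtOH, and rose by 0.99 on the log2 scale (adjusted p = 0.000164). Rara, the gene of the receptor that BMS753 binds, was 0.27 higher (adjusted p = 0.0271), and its adjusted p was 0.127 without the BMS753 array of 24 h, 0.101 without that of 72 h and 0.055 to 0.0618 without an EtOH array. Rarg measured 9.27, 8.6 and 7.4 at 24, 48 and 72 h, against 9.11 to 9.18 in EtOH, and Rxrg 9.54, 7.96 and 5.97, against 9.05 to 9.39. Both were at or above the EtOH arrays at 24 h and below them at 72 h, and neither passed over the 3 times (adjusted p = 0.0825 and 0.0685).

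Of 14 genes for making, taking up and binding retinoids, 3 rose and 3 fell, or 1 and 2 without the BMS753 array of 72 h. Stra6, the gene of the membrane receptor that takes up retinol from its carrier, measured 7.54, 9.56 and 10.28 in BMS753, against 6.92 to 7.04 in EtOH (log2 2.13 ± 0.37 SE, adjusted p = 0.00177). Crabp2, a cytoplasmic carrier of retinoic acid, measured 8.26, 11.86 and 12.11, against 7.79 to 7.91. It was high from 48 h on, and its adjusted p of 0.00467 became 0.0649 without the 48 h arrays of all agents and 0.0558 without the BMS753 array of 72 h. Rbp4, the retinol carrier of blood, fell by 0.61 on the log2 scale, and Lrat, which stores retinol as esters, fell by 0.29. Of 12 further genes known to answer retinoids, 6 rose and 0 fell, and only Skap2 and Nrip1 rose without the BMS753 array of 72 h. Skap2, an adaptor protein gene next to the HoxA cluster, measured 9.5, 10.01 and 9.97 in BMS753, against 7.21 to 7.43 in EtOH (5.68-fold, adjusted p = 7.44e-07). Nrip1, a corepressor of nuclear receptors, rose by 0.78 on the log2 scale.

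The largest rise over 24 to 72 h was that of Meis2, a TALE homeobox gene whose protein binds DNA beside Hox and Pbx proteins. It measured 10.81, 12.36 and 12.38 in BMS753, against 7.08, 6.91, 7.09 and 7.0 in EtOH. Every BMS753 array was more than 3 log2 units above every EtOH array, and the level was flat from 48 h on. The difference was 28.5-fold (log2 4.83 ± 0.29 SE, adjusted p = 4.1e-07). Of 10 TALE genes, 4 rose and 1 fell, or 3 and 0 without the BMS753 array of 72 h. Meis1 measured 6.73, 10.39 and 10.97, against 5.43 to 5.58, and so lagged Meis2 (14.4-fold, adjusted p = 0.000254). Pbx2, a partner gene, rose by 0.86.

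Csn3, the gene of the milk protein kappa-casein, was among the early and lasting rises. It measured 8.8, 8.83 and 8.53 in BMS753, against 5.09, 4.95, 4.84 and 4.98 in EtOH. The 3 BMS753 arrays lay close together and far from the EtOH arrays (13.5-fold, log2 3.76 ± 0.40 SE, adjusted p = 4.88e-05). At 2 and 6 h of BMS753 it measured 6.09 and 7.43. Wnt1, a secreted signal of the dorsal neural tube and the midbrain edge, followed another course. It measured 5.68, 9.37 and 9.82 in BMS753, against 5.17, 5.16, 5.24 and 5.19 in EtOH, so that nearly all of its difference was at 48 and 72 h (8.57-fold, adjusted p = 0.00227).

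Other large rises also differed in their course. Greb1l, a gene with a known role in kidney and inner ear development, measured 10.78, 11.34 and 10.42 in BMS753, against 7.49 to 7.62 in EtOH. Rasgrp3, an activator of Ras, measured 6.68, 8.8 and 9.11, against 5.10 to 5.33. Ptprz1, a receptor phosphatase of neural progenitors and glia, measured 8.64, 10.17 and 9.81, against 6.48 to 6.85. Greb1l was thus near its peak at 24 h, whereas Rasgrp3 and Ptprz1 gained more by 48 h. Tshz1, a zinc finger and homeobox gene, rose 10.4-fold and was highest at 72 h (11.17, against 6.40 to 6.5 in EtOH).

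**Figure D2:**
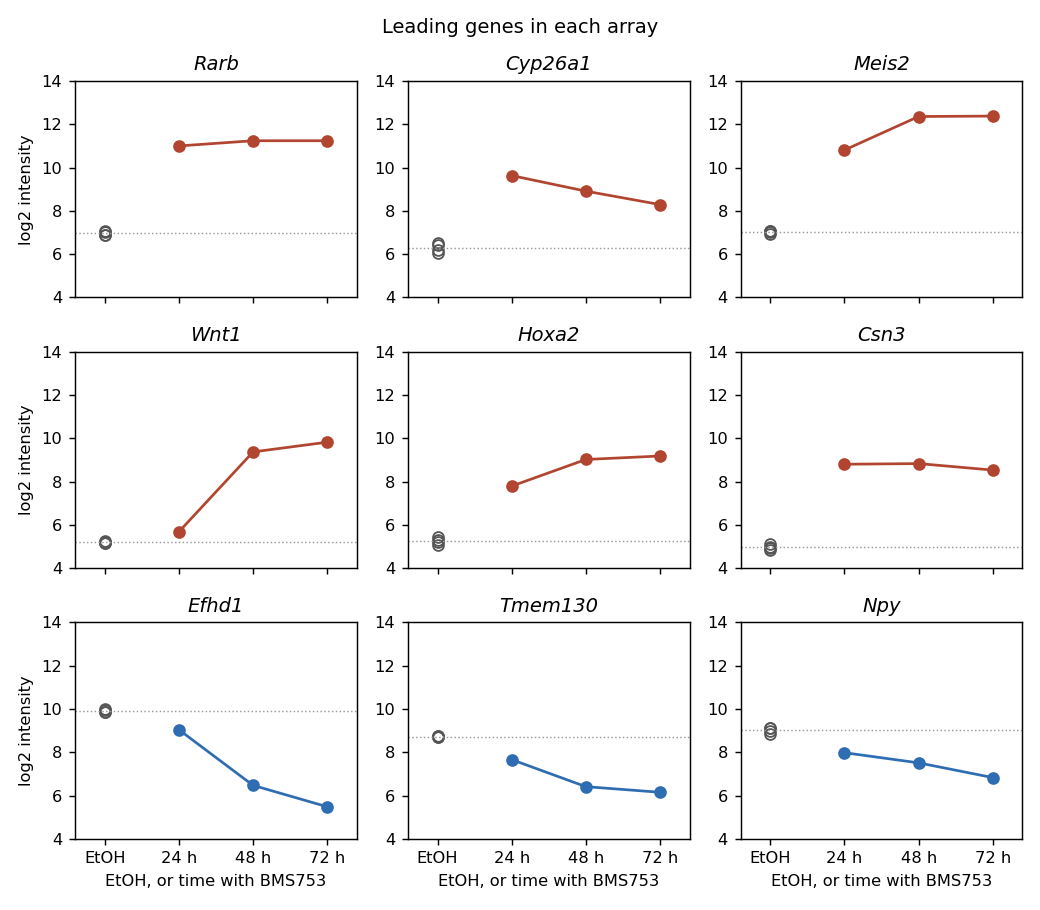
The log2 intensity (vertical axis, the same range in each panel) of 9 genes in the 4 EtOH arrays (open circles, dotted line at their mean) and in the BMS753 arrays of 24, 48 and 72 h (filled circles joined by a line). Rarb and Csn3 are at their plateau by 24 h, Cyp26a1 declines from 9.63 to 8.29 with time, Wnt1 is high only at 48 and 72 h, and Efhd1, Tmem130 and Npy lie below every EtOH array at all 3 times.

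Hox genes of the head and hindbrain end of the clusters made up the list with the largest share of rises. Of 14 genes in paralogue groups 1 to 5, 13 rose and 0 fell, with a median difference of 1.36 beside -0.006 over all genes. Without the 48 h arrays of all agents 6 rose, without the BMS753 array of 72 h 7 rose, and in the 7-array fit 4 rose. The 4 at least 2-fold higher at 24 h alone were Hoxb1, Hoxa2, Hoxb2 and Hoxa5, and 12 were at 72 h. Hoxa2, which patterns the second branchial arch and hindbrain, measured 7.79, 9.02 and 9.18 in BMS753, against 5.08 to 5.42 in EtOH (10.6-fold, adjusted p = 4.17e-06). Hoxb2 measured 8.89, 11.35 and 11.27, against 6.86 to 7.16 (11.6-fold, adjusted p = 8.04e-06). Hoxb1, a marker of the fourth hindbrain segment, measured 8.74, 10.35 and 9.82, against 6.92 to 7.16. In each, no array of BMS753 overlapped EtOH and most of the gain was in place by 48 h.

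The genes of paralogue group 5 differed in their course. Hoxa5 measured 7.26, 9.08 and 9.54 in BMS753, against 5.46 to 5.73 in EtOH (8.20-fold, adjusted p = 1.75e-05). Hoxc5 measured 5.45, 8.42 and 10.67, against 5.11 to 5.24, and its adjusted p of 0.00881 became 0.0622 without the 48 h arrays and 0.0509 without the BMS753 array of 72 h. Hoxb5 measured 5.63, 6.71 and 7.87, against 5.39 to 5.44, with adjusted p = 0.0101 and 0.0915 without the BMS753 array of 72 h. Hoxc5 and Hoxb5 had thus barely left the EtOH range at 24 h. Of 23 genes in paralogue groups 6 to 13, which pattern the trunk and tail, 2 rose (1 without the BMS753 array of 72 h) and 0 fell, and the median difference was 0.12. Hoxb9 was the larger rise, at 8.01, 8.75 and 9.34 in BMS753, against 7.55 to 7.67 in EtOH (adjusted p = 0.0016).

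Of 25 neural progenitor genes, 12 rose, 0 fell and 13 did not pass (median difference 0.30). Without the BMS753 array of 72 h 4 rose, without the 48 h arrays of all agents 6 rose, and in the 7-array fit 0 did. Pax6, a homeobox gene of the neural tube and eye, measured 6.86, 9.11 and 8.82 in BMS753, against 5.88 to 6.18 in EtOH (4.77-fold, adjusted p = 0.000898). Pax3, which marks the dorsal neural tube and neural crest, measured 6.09, 8.92 and 9.92, against 5.74 to 5.77 (5.88-fold, adjusted p = 0.00283). Zbtb16, a zinc finger gene of progenitor cells, rose 3.02-fold, and Msi1, an RNA-binding protein of neural stem cells, rose by 0.73 on the log2 scale. Nes, a filament gene of neural stem cells, measured 8.12, 8.46 and 9.04 in BMS753, against 8.70 to 8.81 in EtOH, so that it crossed the EtOH range.

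Of 39 neuron genes, 3 rose and 2 fell, near the shares of all genes, and the median difference was -0.06. Of these, 1 rise and 1 fall remained without the BMS753 array of 72 h. Gap43, a growth cone protein, was the clearest rise, at 8.51, 9.36 and 9.59 in BMS753, against 7.20 to 7.56 in EtOH (3.32-fold, adjusted p = 0.000378). Elavl2, an RNA-binding protein of neurons, fell by 0.39 on the log2 scale. Tubb3, a tubulin of young neurons, measured 7.48, 7.63 and 7.5 in BMS753, against 7.66 to 8.08 in EtOH (adjusted p = 0.451). Of 11 glia genes, 0 rose and 2 fell (1 without the BMS753 array of 72 h), among them Aldh1l1, an enzyme of folate metabolism used as an astrocyte marker, by 1.16.

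Homeobox genes that place neural tissue along the body gave a mixed picture, with 5 of 21 higher and 4 lower, or 3 and 3 without the BMS753 array of 72 h. Gbx2, which sets the anterior hindbrain, measured 9.17, 9.09 and 8.57 in BMS753, against 6.90 to 7.09 in EtOH (3.78-fold, adjusted p = 0.00102). Lhx2, a forebrain and eye gene, measured 8.93, 10.16 and 8.65, against 7.25 to 7.53. Both were already raised at 24 h and lowest at 72 h. The midbrain genes En1 and En2 and the hindbrain gene Egr2 fell by 0.50, 0.49 and 0.49 on the log2 scale. Their levels were low in all arrays, with Egr2 at 6.0, 5.9 and 5.8 in BMS753, against 6.24 to 6.56 in EtOH.

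Of 35 genes that guide axons, 18 rose, 0 fell and 17 did not pass, and the median difference was 0.89 beside -0.006 over all genes. Without the 48 h arrays of all agents 12 rose, without the BMS753 array of 72 h 13 rose, and in the 7-array fit 3 rose (Epha4, Epha7 and Sema6d). At 24 h Epha4 alone of the list was 2-fold higher, whereas 17 were at 48 h and 17 at 72 h. Relative to BMS753 at 2 and 6 h, 15 of the 35 were higher and 0 lower, where 3.26% of all genes were higher and 7.57% lower. That comparison rests on 2 early arrays, and in a fit of only the late and early BMS753 arrays 0 genes passed.

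The ligands that rose came from several families. Sema3a, a secreted semaphorin that repels axons, measured 7.58, 9.3 and 10.54 in BMS753, against 6.63 to 6.84 in EtOH (5.22-fold, adjusted p = 0.000163). Sema3c measured 7.05, 9.44 and 9.79, against 6.14 to 6.32 (5.82-fold, adjusted p = 0.00128). Sema6d, a membrane semaphorin, measured 7.09, 8.47 and 8.61, against 6.10 to 6.30. All BMS753 arrays of these genes were above all EtOH arrays, and Sema3a kept gaining to 72 h. Efnb1, a membrane ephrin, measured 7.71, 9.32 and 9.1, against 6.90 to 7.11. Ntn1, which encodes netrin-1, measured 7.12, 8.97 and 7.72, against 6.68 to 6.85, with its peak at 48 h. Slit2, a ligand of Robo receptors, measured 7.65, 8.41 and 9.39, against 7.40 to 7.48, with its peak at 72 h.

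Receptors rose too. Plxna2, a semaphorin receptor, measured 7.5, 11.11 and 11.22 in BMS753, against 6.87 to 7.02 in EtOH (8.02-fold, adjusted p = 0.00198). Epha4, a receptor of ephrins, measured 10.18, 11.23 and 10.6, against 8.21 to 8.41 (5.20-fold, adjusted p = 0.000105). Plxna2 was 0.56 above the EtOH mean at 24 h and Epha4 1.89, so the receptors did not start together. Epha7 rose by 1.39 and the ephrins Efnb2 and Efna5 by 1.01 and 0.89 on the log2 scale. Robo2 measured 5.38, 7.84 and 8.74, against 5.42 to 5.61, and its adjusted p was 0.0228 over the 3 times, 0.235 without the BMS753 array of 72 h and 0.0838 without that of 48 h. It also missed the threshold without EtOH array 1, 3 or 4 (adjusted p = 0.0506 to 0.0539). Nrp1, Unc5b and Ephb1 did not pass over the 3 times. Taken singly, Nrp1 was at least 2-fold higher than in EtOH at 48 and 72 h. Unc5b and Ephb1 were at least 2-fold lower at 72 h. Another probe set of Ephb1 differed from EtOH by -0.05 log2 over the 3 times, against -0.66 for that kept.

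**Figure D3:**
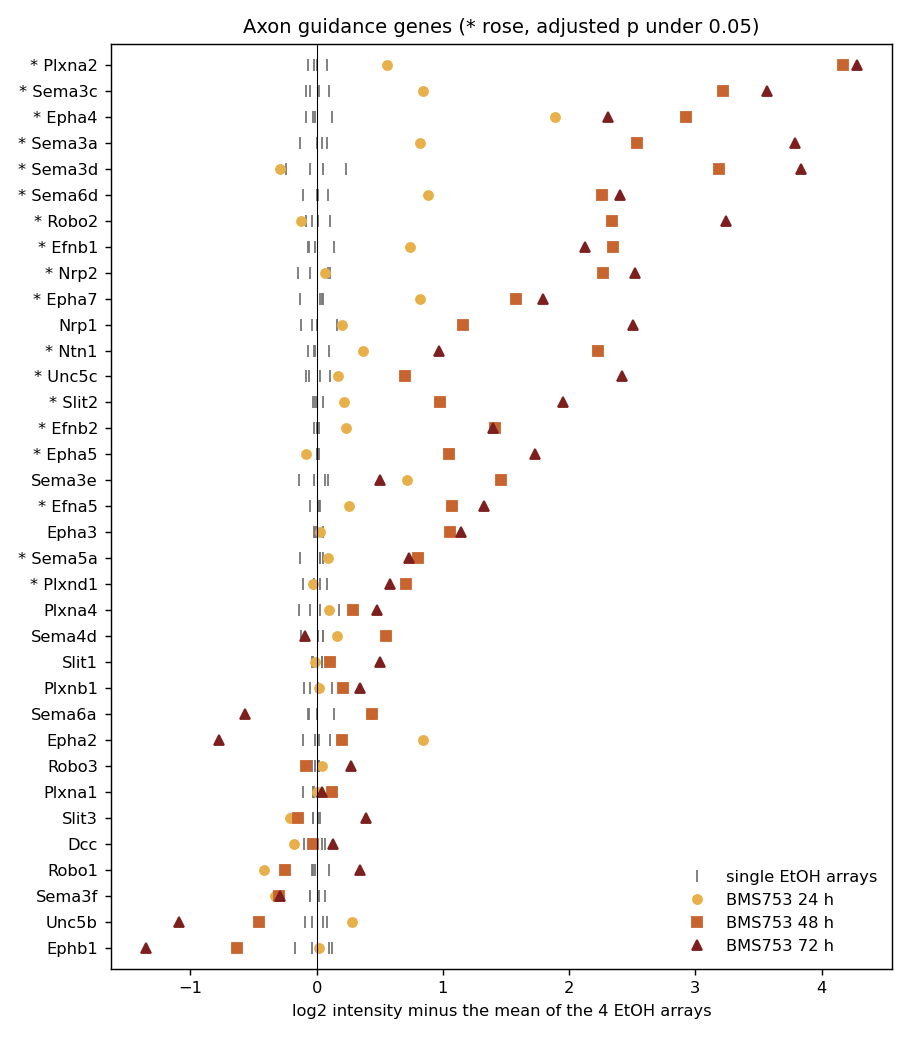
Difference in log2 intensity from the mean of the 4 EtOH arrays (horizontal axis) for the 35 axon guidance genes (rows, sorted by the 24 to 72 h difference) at 24 h (circles), 48 h (squares) and 72 h (triangles) of BMS753, with single EtOH arrays as grey ticks. The 18 genes with an asterisk rose, and for many of them the 24 h circle lies near the EtOH ticks while the 48 and 72 h symbols lie far to the right.

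Of 41 Wnt pathway genes, 12 rose and 2 fell (median difference 0.31), and the rises included activating and inhibiting members. Without the 48 h arrays of all agents 5 rose, and without the BMS753 array of 72 h 7 rose and 0 fell. The list's median difference was -0.01, 0.26 and 0.56 at 24, 48 and 72 h. Besides Wnt1, the ligand gene Wnt5a measured 5.88, 7.39 and 7.64 in BMS753, against 5.58 to 5.85 in EtOH (adjusted p = 0.0016). The receptor gene Fzd2 measured 9.56, 10.49 and 10.17, against 9.04 to 9.19 (adjusted p = 7.9e-05). Frzb, a secreted antagonist, measured 5.94, 8.99 and 8.43, against 5.34 to 5.52 (5.18-fold, adjusted p = 0.00167). Axin2, a feedback inhibitor raised by Wnt signals, measured 7.04, 8.79 and 9.81, against 6.91 to 7.25, so that it stood inside the EtOH range at 24 h. Its adjusted p was 0.0075 over the 3 times, 0.0651 without the 48 h arrays and 0.0681 without the BMS753 array of 72 h.

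In the BMP list, 5 of 24 genes rose and 0 fell. Without the BMS753 array of 72 h 2 rose (Id2 and Smad6), and in the 7-array fit 0 did. The list's median difference from EtOH grew with time, at -0.01, 0.31 and 0.74 at 24, 48 and 72 h. Over all genes it was -0.013, 0.005 and -0.006. Id2, a target gene that blocks bHLH factors, measured 11.21, 12.59 and 12.76 in BMS753, against 10.51 to 10.64 in EtOH (3.06-fold, adjusted p = 0.000109). Smad6, a feedback inhibitor, rose by 0.67. Of 20 FGF genes, 4 rose and 2 fell, and without the BMS753 array of 72 h 2 rose and 1 fell. Fgfr2, a receptor gene, measured 9.24, 10.43 and 10.69, against 8.24 to 8.35 (3.52-fold, adjusted p = 4.88e-05). Etv4, a transcription factor gene known as an FGF target, fell by 0.71. Of 22 proneural and Notch genes, 3 rose and 1 fell, and without the BMS753 array of 72 h 0 rose. Dll1, a Notch ligand, measured 6.69, 9.02 and 9.23, against 6.62 to 6.81, with adjusted p = 0.00879, and 0.102 without the BMS753 array of 72 h and 0.0682 without that of 48 h. Dll3, another ligand gene, fell by 0.53.

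The largest fall over 24 to 72 h was that of Efhd1, which encodes a calcium-binding protein of mitochondria. It measured 9.04, 6.47 and 5.48 in BMS753, against 9.98, 9.85, 9.96 and 9.86 in EtOH. Its 24 h array was already below every EtOH array, and the level kept falling to 72 h. The difference was 7.55-fold (log2 -2.92 ± 0.40 SE, adjusted p = 0.000345). Calcr, the calcitonin receptor gene, measured 9.98, 7.39 and 6.49, against 10.65 to 10.70. Il20ra, a chain of the interleukin-20 receptor, measured 7.47, 5.23 and 4.9, against 8.39 to 8.70. Both had no overlap with EtOH and lost more between 24 and 48 h than before.

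Further falls concerned a transcription factor, metabolic genes and a peptide. Myb, a transcription factor of immature cells, measured 9.32, 7.62 and 7.04 in BMS753, against 9.97 to 9.98 in EtOH (3.96-fold, adjusted p = 0.000127). Gstk1, a glutathione transferase of mitochondria and peroxisomes, fell by 1.98 on the log2 scale, Hsd17b11, a steroid dehydrogenase of lipid droplets, by 2.18, and Fabp3, a carrier of fatty acids, by 1.82. Npy, the gene of neuropeptide Y, measured 7.98, 7.51 and 6.83, against 8.85 to 9.14 (3.0-fold, adjusted p = 4.88e-05). Tmem130 measured 7.66, 6.41 and 6.15, against 8.69 to 8.73 (3.94-fold, adjusted p = 9.56e-06). Npy and Tmem130 were among the 8 genes at least 2-fold lower at 24 h, of which Edn1, Il20ra, Pcolce and Pxdc1 are the others with a known name. These were picked for description after their values were seen.

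Of 31 pluripotency genes, 0 rose, 7 fell and 24 did not pass (median difference -0.15), and without the BMS753 array of 72 h 1 fell and without the 48 h arrays of all agents 0. Tdgf1, a Nodal co-receptor, measured 11.39, 9.19 and 5.77 in BMS753, against 11.41 to 11.60 in EtOH. L1td1, an RNA-binding protein gene, measured 9.43, 7.86 and 5.86, against 9.47 to 9.51. Both were close to EtOH at 24 h and deeply reduced at 72 h. Their adjusted p-values over the 3 times were 0.0361 and 0.0309, then 0.336 and 0.292 without the BMS753 array of 72 h, and 0.0617 and 0.0724 without that of 48 h. Leaving out any single EtOH array also ended both calls (adjusted p = 0.0683 to 0.0757 for Tdgf1 and 0.0627 to 0.0658 for L1td1).

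The core factors showed 3 different courses. Pou5f1, which encodes Oct4, measured 12.79, 11.44 and 8.88 in BMS753, against 12.85 to 12.99 in EtOH. It fell at each step and was more than 2-fold below every EtOH array at 48 and 72 h. The test over the 3 times did not pass (adjusted p = 0.152). Nanog measured 10.11, 8.95 and 7.23, against 8.82 to 8.91, above EtOH at 24 h and below it at 72 h (adjusted p = 0.939). Sox2, which neural progenitors share with pluripotent cells, measured 11.63, 11.74 and 11.74, against 11.50 to 11.56 (adjusted p = 0.618). Nanog and Nr0b1, a nuclear receptor gene of the same network, were the 2 of the list at least 2-fold higher at 24 h, and at 72 h 12 of the list were at least 2-fold lower and 1 higher.

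Genes of cell adhesion moved both ways. Of 26 genes of cell adhesion and the epithelial-mesenchymal transition, 6 rose and 8 fell (median difference -0.09), and without the BMS753 array of 72 h 3 rose and 3 fell. Grhl2, a transcription factor that maintains epithelia, measured 7.04, 6.04 and 5.83 in BMS753, against 7.52 to 7.65 in EtOH (2.42-fold, adjusted p = 0.000256). Cldn6, a tight junction protein gene, measured 11.43, 10.48 and 9.83, against 11.61 to 11.76 (2.12-fold, adjusted p = 0.000648). Ocln, another junction protein gene, measured 7.23, 6.64 and 5.7, against 7.52 to 7.76. In these 3, the level fell at each time and no array overlapped EtOH. Cdh1, which encodes E-cadherin, measured 11.04, 10.14 and 8.59, against 11.12 to 11.21, with adjusted p = 0.0262, then 0.241 without the BMS753 array of 72 h and 0.0715 without that of 48 h. It also missed the threshold without any single EtOH array (adjusted p = 0.0533 to 0.0602). Pcdh18, a protocadherin gene, rose 3.22-fold and was raised by 24 h, at 9.16, 9.71 and 9.65, against 7.75 to 7.88.

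Of 8 genes that write or erase DNA methylation, 2 rose and 4 fell, and without the BMS753 array of 72 h 0 rose and 0 fell. Dnmt3b, a methyltransferase of early embryonic cells, measured 11.15, 10.18 and 8.68 in BMS753, against 11.51 to 11.58 in EtOH (adjusted p = 0.0167, and 0.167 without the BMS753 array of 72 h). Tet2, which oxidises methylcytosine, measured 9.74, 8.5 and 8.47, against 8.30 to 8.36, so that only its 24 h array was clearly higher. Of 21 Polycomb and Trithorax genes, 6 rose and 4 fell, and without the BMS753 array of 72 h 0 rose and only Phc1 fell. Phc1, a Polycomb gene, fell by 1.08 on the log2 scale, at 11.58, 10.37 and 9.87, against 11.68 to 11.72.

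Marker lists of other cell types were examined for cells that the cultures could hold. Of 29 endoderm genes, 4 rose (3 without the BMS753 array of 72 h) and 0 fell. Gata6, an endoderm transcription factor, measured 9.04, 9.08 and 9.85 in BMS753, against 7.40 to 7.63 in EtOH (3.52-fold, adjusted p = 0.000529). Foxa1, a forkhead factor of endoderm and floor plate, measured 7.02, 7.51 and 8.78, against 5.68 to 6.03 (3.66-fold, adjusted p = 0.00183). The mean level of the endoderm list was 7.28, 7.58 and 7.78 at 24, 48 and 72 h of BMS753, against 7.17 to 7.26 in EtOH. Of 19 neural crest and border genes, 7 rose and 2 fell, with a mean level of 6.77, 7.16 and 7.72, against 6.73 to 6.80, but 0 rose without the BMS753 array of 72 h. Tfap2b, a crest transcription factor, measured 5.22, 6.18 and 9.85, against 5.09 to 5.30, and its adjusted p of 0.0329 became 0.121 without the 72 h array. Leaving out any single EtOH array also ended that call (adjusted p = 0.0623 to 0.0725).

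The mesoderm list (28 genes) had 2 rises and 1 fall, none of which passed without the BMS753 array of 72 h, and its mean level was 6.15, 6.33 and 6.46 in BMS753, against 6.16 to 6.24 in EtOH. Among 18 genes of fibroblasts and smooth muscle there were 0 rises and 2 falls (1 without the BMS753 array of 72 h), including Thy1, a surface protein gene, by 0.84. At 72 h alone, however, the smooth muscle genes Acta2, Tagln and Myl9 and the matrix genes Col1a2 and Dcn were at least 2-fold higher than in EtOH, and Des and Thy1 at least 2-fold lower. At 48 h 1 of the list, Tagln, was higher, and at 24 h 0 were higher or lower. The mean level of that list was 7.04, 7.14 and 7.50, against 7.01 to 7.08. Of 9 trophoblast genes 1 rose (0 without the BMS753 array of 72 h) and 1 fell, Ascl2, a transcription factor gene, being lower by 1.24. The mean level of that list was 6.34, 6.49 and 6.23, against 6.39 to 6.46, and that of the glia list 6.43, 6.33 and 6.22, against 6.49 to 6.53. For scale, the Hox list of groups 1 to 5 averaged 6.78, 8.04 and 8.75 in BMS753, against 6.02 to 6.11 in EtOH. The part of a change in cell makeup in any result was not tested.

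Of 36 cell cycle genes, 2 rose (0 without the BMS753 array of 72 h) and 1 fell. These shares were 5.56% and 2.78%, beside 6.52% and 6.94% of all genes. The fall, that of Ccne1, had an adjusted p of 0.0872 without the BMS753 array of 72 h. The mean level of the list was 10.39 to 10.52 in BMS753 and 10.41 to 10.43 in EtOH. Of 18 p53 target and apoptosis genes, 3 rose and 1 fell, and without the BMS753 array of 72 h 3 rose and 0 fell. Plk3, a stress-activated kinase, measured 10.61, 10.3 and 9.79, against 8.72 to 8.89, and had 10.54 and 10.31 at 2 and 6 h, so it was high from the start and declined (2.73-fold, adjusted p = 0.000105). Gadd45a, a stress gene, measured 7.98, 9.04 and 9.95, against 7.70 to 7.84, the opposite course. Of 19 glycolysis genes 0 rose and 2 fell (1 without the BMS753 array of 72 h), with Pfkm, a phosphofructokinase gene, lower by 0.94. Of 17 cholesterol synthesis genes 2 rose, by less than 0.40 log2, and 0 without the BMS753 array of 72 h. Of 20 imprinted genes 5 rose and 1 fell, and without the BMS753 array of 72 h 1 did each way. The median difference of the imprinted genes was -0.04, 0.18 and 0.56 at 24, 48 and 72 h. The 15 genes of the Nodal pathway and mesendoderm had 1 rise and 3 falls (0 and 1 without the BMS753 array of 72 h), among them Mixl1, a mesendoderm homeobox gene, which fell by 0.62.

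Of 20 ATF4 target and amino acid genes, 0 rose and 8 fell, by 0.27 to 1.01 on the log2 scale (list median -0.35). Sesn3, a regulator of growth signalling, measured 10.6, 10.17 and 9.97 in BMS753, against 10.77 to 10.85 in EtOH, and fell by 0.55 (adjusted p = 0.00202). Trib3, a pseudokinase gene raised by ATF4, measured 9.21, 8.28 and 8.89, against 9.45 to 9.62, and its adjusted p was 0.0225, then 0.167 without the BMS753 array of 48 h and 0.0561 and 0.0565 without EtOH arrays 2 and 3. Without the BMS753 array of 48 h only 1 of the list, Sesn3, fell, and in the 7-array fit 0. Without that 48 h array, rises and falls were also 1 and 2 in the neural crest list, 1 and 1 in the Polycomb and Trithorax list, 0 and 2 in the DNA methylation list and 2 and 0 among imprinted genes.

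**Figure D4:**
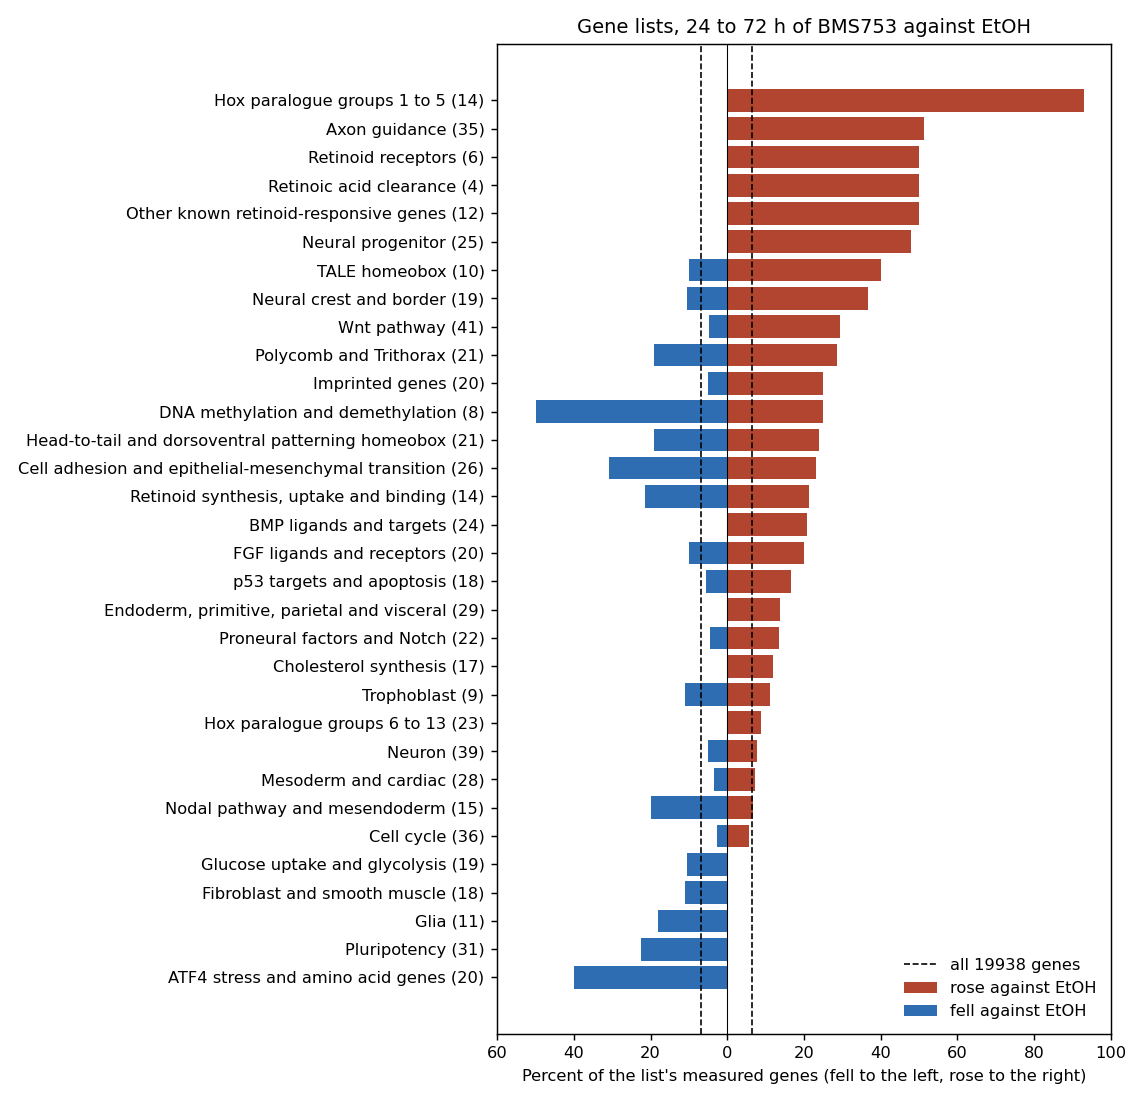
Percent of the measured genes of each list (rows, with the number measured in brackets) that rose (right of 0) or fell (left of 0) over 24 to 72 h of BMS753 against EtOH, with dashed lines at the shares over all 19938 genes, 6.52% and 6.94%. The Hox list of groups 1 to 5 reaches furthest to the right with 13 of 14 genes, and the lists of DNA methylation (4 of 8) and ATF4 genes (8 of 20) furthest to the left. Without the BMS753 array of 72 h, 0 of the 8 DNA methylation genes passed.

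Comparing the last with the first of the 3 BMS753 arrays, 493 genes (2.47%) were at least 2-fold higher at 72 h than at 24 h and 580 (2.91%) lower. Among genes that passed over 24 to 72 h, the largest gains were of Hoxc5 (5.21), Tfap2b (4.64), Meis1 (4.24), Wnt1 (4.14), Sema3d (4.12), Ednrb (3.87), Msx1 (3.85) and Crabp2 (3.85 log2). The largest losses were of Tdgf1 (-5.62), Pdzd4 (-3.92), Glp1r (-3.59), L1td1 (-3.57), Efhd1 (-3.55), Calcr (-3.49), Ndrg2 (-3.46) and Gch1 (-3.45). Each of these 16 genes has 1 array per time, so a step is the difference of 2 arrays, judged against the EtOH spread. In the 24 to 72 h test, Sema3d, Ednrb, Msx1, Pdzd4, Glp1r, Ndrg2 and Gch1 lost the call without the BMS753 array of 72 h (adjusted p = 0.107, 0.252, 0.164, 0.126, 0.386, 0.202 and 0.238), as did those named above with such a value. Without that of 48 h, Sema3d, Ednrb, Msx1, Glp1r, Ndrg2 and Gch1 lost it too (adjusted p = 0.0517 to 0.0862). Ednrb, Gch1 and Glp1r also lost it without single EtOH arrays (adjusted p = 0.0504 to 0.0876).

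Set against BMS753 at 2 and 6 h, 24 to 72 h of BMS753 had 649 genes higher (3.26%) and 1510 lower (7.57%). After a further quantile normalization the split was 749 higher and 949 lower, so the size of the excess of lower genes depended on scaling. The excess itself remained. Meis2 stood at 10.81, 12.36 and 12.38 at the 3 late times and at 7.21 and 8.19 at 2 and 6 h (late minus early 4.15, adjusted p = 3.24e-05). Rarb had 9.53 and 10.49 at 2 and 6 h, and so had made most of its rise there (late minus early 1.15, adjusted p = 0.000591). Hoxa2 had 5.43 and 5.57 at 2 and 6 h, close to its EtOH arrays of 5.08 to 5.42. Tmem130 had 9.08 and 9.01 at 2 and 6 h, above its EtOH arrays, and was lower by 2.30 later (adjusted p = 3.24e-05). Leaving out either early array kept the calls of these 4 genes, although over all genes 268 or 238 passed then in place of 2159.

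Against ATRA at the same dose and times, 24 to 72 h of BMS753 had 1182 genes higher (5.93%) and 885 lower (4.44%). In a limma fit of only the 6 arrays compared 0 genes passed, with 1440 at an unadjusted p under 0.05, and the adjusted p-values that follow come from the fit of all 24 arrays. Pairing the 6 arrays by time gave 0 as well, with 2370 at an unadjusted p under 0.05. In a fit of only the 5 arrays of late and early BMS753 0 genes passed as well, with 2870 at an unadjusted p under 0.05. Without the 48 h arrays 317 genes passed in place of 2067, without the BMS753 array of 48 h 650, without the ATRA array of 72 h 767 and without that of 24 h 5424. The 8 largest differences upward were of Mogat2 (2.42), Cyp2b23 (2.22), Pla2g7 (2.16), Fgf15 (2.05), Nanog (2.05), Slc7a11 (1.99), Slc7a7 (1.97) and Fst (1.88 log2). Mogat2, an acyltransferase of fat synthesis, measured 9.9, 10.61 and 10.17 in BMS753, against 9.34, 7.61 and 6.47 in ATRA, and 9.76 to 9.89 in EtOH. Pla2g7, a secreted phospholipase, measured 10.84, 11.46 and 10.9 in BMS753, against 9.94, 8.0 and 8.78 in ATRA, and 11.25 to 11.35 in EtOH. Fst, which encodes the activin-binding protein follistatin, measured 9.01, 11.38 and 9.56 in BMS753, against 8.14, 8.39 and 7.77 in ATRA, and 9.03 to 9.39 in EtOH. Mogat2, Pla2g7 and Fst thus all lay below their EtOH arrays at each time of ATRA. In BMS753, Mogat2 was close to EtOH at 24 h and above it at 48 and 72 h, and Pla2g7 lay on both sides of its EtOH arrays. Fst peaked at 48 h of BMS753 and was close to EtOH at 24 and 72 h.

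Calls of Pla2g7 and Fst (adjusted p = 0.00139 and 0.00778) held whichever array or time was left out. Without the 48 h arrays of all agents the adjusted p was 0.0704 for Mogat2, 0.279 for Cyp2b23 and 0.107 for Fgf15. It was 0.228 for Nanog, 0.0849 for Slc7a11 and 0.305 for Slc7a7. Nanog also lost the call without the ATRA array of 48 or 72 h or the BMS753 array of 24 or 48 h (adjusted p = 0.114 to 0.125), as did Cyp2b23 and Slc7a7 (adjusted p = 0.103 to 0.194). Fgf15 missed it without the BMS753 array of 48 h (0.0516) and Slc7a11 without the ATRA array of 72 h (0.0562). Nanog measured 10.11, 8.95 and 7.23 in BMS753, against 8.67, 5.46 and 6.01 in ATRA, so that at each time it was higher in BMS753. Fgf15, a growth factor gene, measured 10.6, 9.85 and 8.14 in BMS753, against 8.67, 6.87 and 6.89 in ATRA.

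The 8 largest differences downward were of Cxcl15 (-3.02), Ifi203 (-2.82), Cyp26b1 (-2.50), Adh1 (-2.14), Mme (-2.11), Hoxc6 (-2.11), Zfp804a (-2.10) and Col12a1 (-2.08). Cyp26b1, a retinoic acid oxidase gene, measured 7.74, 7.18 and 8.01 in BMS753, against 9.41, 10.43 and 10.61 in ATRA, and 6.81 to 7.08 in EtOH (adjusted p = 0.000577). Mme, which encodes the peptidase neprilysin, measured 8.29, 7.32 and 8.28 in BMS753, against 10.31, 9.34 and 10.56 in ATRA, and 8.22 to 8.40 in EtOH (adjusted p = 0.000347). These 2 were higher in ATRA at each time and kept the call whichever array was left out. The other 6 lost it without the 48 h arrays of all agents (adjusted p = 0.122 to 0.306). They also lost it without the ATRA array of 72 h (0.0744 to 0.238), without that of 48 h (0.0537 to 0.164) and without the BMS753 array of 48 h (0.0884 to 0.175). Dhrs3 was 1.22 lower in BMS753 than in ATRA (adjusted p = 0.0011), and Slit2 1.46 lower (adjusted p = 0.0014).

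Among Hox genes of groups 1 to 5, 8 of 14 were lower in BMS753 than in ATRA and 0 higher (median -1.21, all genes -0.023). Without the 48 h arrays of all agents 3 were lower. Hoxa2 differed by 0.12 (95% interval -0.49 to 0.72, adjusted p = 0.815) and Hoxb1 by -0.24 (95% interval -1.1 to 0.62, adjusted p = 0.724), so these 2 did not pass. Hoxa5 was 1.93 lower in BMS753 (adjusted p = 0.00237), Hoxb3 1.29 lower (adjusted p = 0.00222) and Hoxa4 0.91 lower (adjusted p = 0.00208), calls that held whichever array was left out. Hoxb5 measured 5.63, 6.71 and 7.87 in BMS753, against 7.97, 9.5 and 8.85 in ATRA (adjusted p = 0.00289, and 0.0517 without the 48 h arrays). Of the 23 Hox genes of groups 6 to 13, 7 were lower in BMS753, including Hoxb9 by 1.42 (adjusted p = 0.00129), and 0 higher. Without the 48 h arrays of all agents 1, Hoxb9, was lower. Whether the gap itself differs between low and high groups was not tested.

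The ATF4 list differed the other way, with 12 of 20 genes higher in BMS753 than in ATRA and 0 lower (median 0.45). Without the 48 h arrays of all agents 2 were higher, and without the 72 h arrays 2. Chac1, an enzyme that degrades glutathione, measured 10.31, 9.92 and 10.56 in BMS753, against 9.83, 9.12 and 8.66 in ATRA, and 10.45 to 10.52 in EtOH (difference 1.06 ± 0.18 SE, adjusted p = 0.00412, kept whichever array was left out). Slc7a11, the cystine importer, measured 11.17, 10.04 and 9.96 in BMS753, against 10.32, 7.5 and 7.36 in ATRA, and 11.38 to 11.56 in EtOH. Both were lower with ATRA than with BMS753 at each time.

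In the Wnt list 7 of 41 genes were higher in BMS753 than in ATRA and 2 lower, with 1 and 1 without the 48 h arrays. Lef1, a transcription factor of the pathway, measured 7.91, 7.54 and 7.82 in BMS753, against 6.83, 6.78 and 7.23 in ATRA, and 7.70 to 7.87 in EtOH (adjusted p = 0.00214). Sfrp1, a secreted antagonist, measured 10.32, 10.65 and 10.29 in BMS753, against 11.13, 11.04 and 12.02 in ATRA, and 10.55 to 10.70 in EtOH (adjusted p = 0.00364). Frzb measured 5.94, 8.99 and 8.43 in BMS753, against 6.17, 6.21 and 5.59 in ATRA, a difference of 1.80 (adjusted p = 0.0207, 0.131 without the 48 h arrays, 0.115 without the ATRA array of 72 h and 0.107 without the BMS753 array of 48 h). Lef1 was thus close to EtOH in BMS753 and lower in ATRA, Sfrp1 was above its EtOH arrays in ATRA and not in BMS753, and Frzb was high in BMS753 at 48 and 72 h. Pax6 was 1.75 lower in BMS753 than in ATRA (adjusted p = 0.0128, 0.0509 without the 48 h arrays, 0.0516 without the ATRA array of 48 h and 0.0515 without the BMS753 array of 24 h), and Zic1, a zinc finger gene of dorsal neural tissue, 0.75 higher (adjusted p = 0.00848). In the axon guidance list 1 gene was higher (0 without the 48 h arrays) and 1, Slit2, lower.

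**Figure D5:**
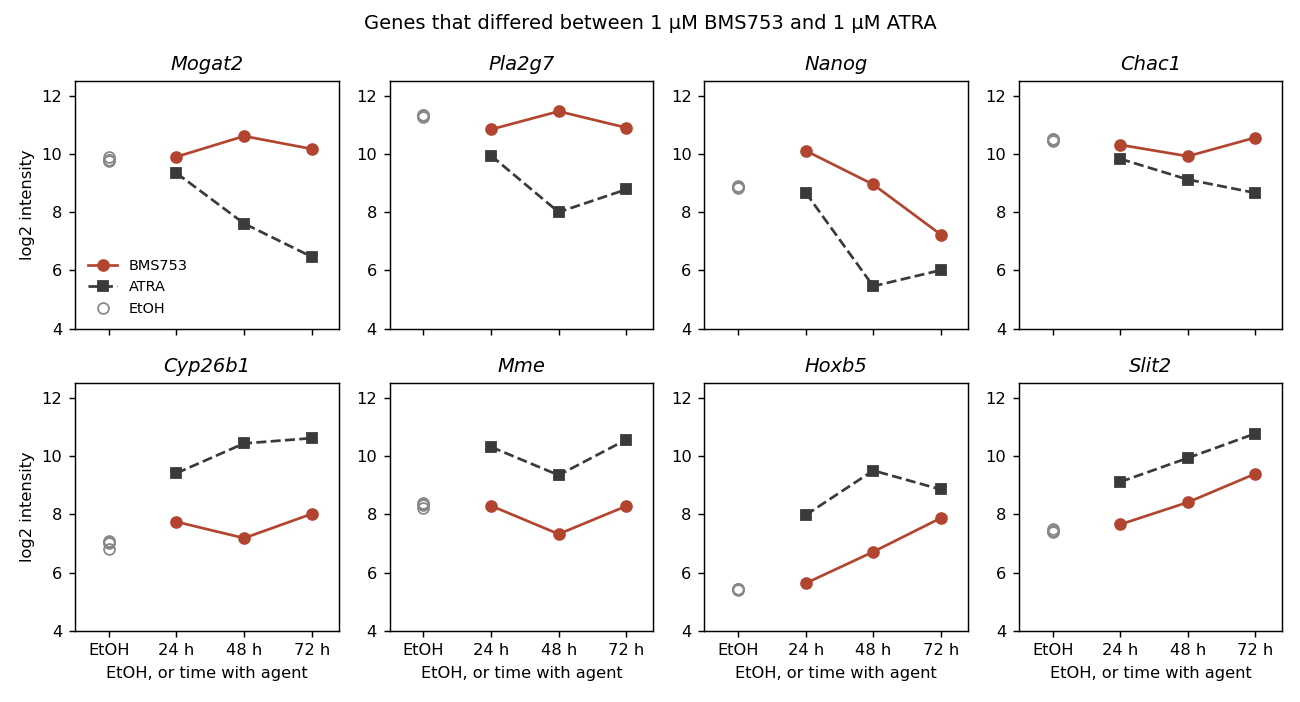
The log2 intensity (vertical axis) of 8 genes in the BMS753 arrays (filled circles, solid line) and ATRA arrays (squares, dashed line) of 24, 48 and 72 h, with the 4 EtOH arrays as open circles at the left. Mogat2, Pla2g7, Nanog and Chac1 are higher in BMS753 than in ATRA at all 3 times, and Cyp26b1, Mme, Hoxb5 and Slit2 are lower.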

How the data were processed

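RNA was hybridised to Affymetrix Mouse Gene 1.0 ST arrays, 1 per sample, 24 in all. The deposited values are log2 intensities that the authors normalised between arrays with Affymetrix Expression Console 1.1, per the submitters' processing notes. That they are log2 was judged from their range of 2.859 to 14.303. The background correction and summarization are not given in the sources used here. Of 35556 probe sets, 21789 have 1 gene symbol, 1621 several and 12146 none. For the 999 genes with several probe sets, that with the highest mean was kept, giving 19938 genes, with no filter on dim genes. Groups came from the labels. The number of arrays limits the precision.

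limma 3.58.1 in R 4.3.3 (lmFit, eBayes with trend) fitted all 24 arrays at once, with means for EtOH and, per agent, for early (2 and 6 h) and late (24, 48 and 72 h) arrays, and time terms shared by the agents (12 residual degrees of freedom). Single times were tested in a fit with a mean for every agent and time (3 residual degrees of freedom) and needed a 2-fold difference too. P-values were adjusted by Benjamini-Hochberg over all genes. The scripts were tested on simulated data. The genes described are the 20 largest rises and falls over 24 to 72 h outside the EtOH range, the 8 largest each way for the other comparisons, 4 markers and the members of 32 lists. The members, lists and rules were chosen with earlier results of these data known. Alternatives covered the dim-gene filter, normalization, probe sets, moderation, time terms, the arrays in the fit, and leaving out each array or time. Pairing the BMS753 and ATRA arrays by time was added after seeing the data. F9 cells were not analysed here.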

Additional observations from a re-analysis of the deposited data

Results flagged for a closer look

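Late and early BMS753 arrays differed in 2159 genes, a tested difference between times under the same agent. Among the 8 largest each way, the homeobox genes Meis2 (4.15), Meis1 (3.61), Hoxb2 (3.33), Hoxa2 (3.16) and Hoxa5 (2.99 log2) were higher late than early, as were Tshz1 (3.25), Plxna2 (3.09) and Rasgrp3 (3.07). Lower late than early were Efhd1 (-2.85), Calcr (-2.56), Il20ra (-2.49), Gca (-2.45), Foxi3 (-2.41), Tmem130 (-2.30), Slc35d3 (-2.22) and Hsd17b11 (-2.19). Meis1, Tshz1, Plxna2, Efhd1, Calcr, Gca, Slc35d3 and Hsd17b11 lost the call without either early array (adjusted p = 0.052 to 0.135).

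In 16 of 245 genes checked, 1 of the 4 EtOH arrays lay far from the other 3, and chance gives about 1 in 20. EtOH array 1 stood apart for Cdh3 (9.77, others 9.69 to 9.70), Dll3 (7.09, others 6.94 to 6.96), Efna5 (9.22, others 9.29 to 9.30), Etv4 (7.69, others 7.53 to 7.56), Hoxb9 (7.55, others 7.66 to 7.67), Pbx4 (7.80, others 7.87 to 7.88), Phc2 (8.59, others 8.55 to 8.56) and Zfp703 (7.15, others 7.31 to 7.34). EtOH array 2 did for Ccl17 (9.58, others 9.81 to 9.82), Eomes (8.56, others 8.72 to 8.75), Epha7 (8.11, others 8.27 to 8.29), Fgf10 (5.55, others 5.47 to 5.48), Kdm6b (10.16, others 10.05 to 10.06) and Rasgrp3 (5.33, others 5.10 to 5.14). EtOH array 3 did for Pcgf2 (8.70, others 8.85 to 8.86), and EtOH array 4 for Sema5a (7.45, others 7.61 to 7.63).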

How the results depend on the processing

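For 24 to 72 h of BMS753 against EtOH, 2683 genes passed. The count was 6247 when EtOH arrays alone gave the spread, 4242 with separate time terms for the 1 and 0.1 µM agents, 299 with only the 7 arrays compared, and 412 with a 2-fold threshold added. It was 5364, 1051 and 1510 without all 24, 48 or 72 h arrays, and 927 to 3354 when leaving out 1 array. For late against early BMS753 (2159 genes), the same settings gave 6057, 3724 and 0 genes, 1374 passed with no time term, and 5033, 779 and 1210 without each time. Leaving out 1 array gave 238 to 3018. For BMS753 against ATRA (2067 genes) they gave 7024, 4308 and 0, and 4735, 317 and 1022 without each time, with 650 to 5424 when leaving out 1 array. The cause of these differences in count was not tested. The dim-gene filter, repeated normalization, averaged probe sets and robust moderation kept each of these counts within 1.5 times. Single-time counts moved little under the alternatives run, from 91 to 103 genes at 24 h, 584 to 628 at 48 h and 1064 to 1169 at 72 h. The balance of higher and lower genes did change side. At 72 h it was 601 higher and 561 lower, but 508 and 556 with the dim-gene filter. Over 24 to 72 h it was 1299 and 1384, but 3149 and 3098 with the EtOH spread alone, 189 and 110 with 7 arrays, 464 and 463 without the BMS753 array of 72 h and 771 and 739 without the 72 h arrays. BMS753 and ATRA arrays share times, and a fit of those 6 with time as a replicate block, added after seeing the data, called 0 genes, with 2370 at an unadjusted p under 0.05 (lowest adjusted p = 0.213). EtOH arrays have no time label and cannot be paired. With 1 array per time, EtOH arrays without a time label and no detection values, differences between times rest on single arrays and low signals cannot be told from background.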
